A study of Arabidopsis thaliana with 36 samples.

Results

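The comparison described here sets roots of the Arabidopsis thaliana mutant otu5 on control medium, which supplied sufficient phosphate (Pi), against roots of the wild type (WT) on the same medium. It covers every gene that reached 1 RPKM in 3 or more of the study's 12 RNA libraries, 20411 of the 33557 genes in the deposited table. RPKM is, by its name, the reads of a gene divided by its length and by the mapped reads of the library. The groups were otu5 control and WT control, with 3 libraries each, and otu5 low Pi and WT low Pi, again with 3 libraries each, are used only beside them. Polyadenylated RNA was taken from roots harvested 14 days after germination, grown at 21 °C in continuous light. The labels do not give the mutant allele, do not say whether it is 1 line, and do not say whether libraries came from separate cultures, so p-values measure the spread between these libraries, which may be technical. The tissue label and growth text name roots, while the text on RNA isolation names rosette leaves. For 6 of the 12 RNA libraries the label on culture condition contradicts the title, and groups follow the titles.

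OTU5 belongs to the ovarian tumour family of deubiquitylating enzymes, proteases that remove ubiquitin from proteins. Ubiquitin is attached to proteins one unit at a time, and chains of it can send a protein to the 26S proteasome, while ubiquitin on histone H2B is linked to the transcription state of chromatin. In roots, ubiquitin ligases take part in the responses to auxin, ethylene, jasmonate and Pi supply, and enzymes that remove ubiquitin act against them. The study asked about the part of OTU5 in how roots develop, and in how Pi starvation alters that.

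OTU5 itself was nearly absent from the mutant libraries. It had 1.32, 1.71 and 1.04 RPKM in otu5, against 43.1, 39.98 and 39.6 RPKM in WT, and all 3 mutant values lay far below all 3 WT values. The mutant mean was 3.32% of the WT mean (log2 difference -4.49, SE 0.18, adjusted p = 1.1e-06, limma with Benjamini-Hochberg adjustment over all genes tested). An exact two-sided permutation test of the 6 values gave p = 0.1, the smallest it can give with 3 libraries against 3. All log2 differences here are otu5 minus WT on log2(RPKM + 0.5), a scale on which genes of low level change by less than their fold, and genes are called at an adjusted p under 0.05. None of the 10 tested genes nearest to OTU5 in gene order was called by limma, with 2 at an unadjusted p under 0.05. Among the 10 were TIR1, the auxin receptor of an E3 ubiquitin ligase (log2 difference 0.10, SE 0.05, adjusted p = 0.21), and NPL41 (log2 difference 0.07, SE 0.06, adjusted p = 0.48). Of the 40 nearest, 1 was called. The other 3 tested members of the OTU family that carry a name in the gene table were not called.

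On control medium 2117 genes were called (10.4% of those tested), 990 of them higher in otu5 (4.85%) and 1127 lower (5.52%). Most differences were small, with a median size of 0.37 on the log2 scale among called genes. A log2 difference of at least 1 in size was seen for 121 of the genes that rose (0.593% of genes tested) and 52 of those that fell (0.255%). The 3 otu5 and 3 WT values did not overlap for 6768 genes (33.2%). The first principal component of the 6 libraries held 37.5% of the variance and separated the genotypes, with scores from 20.3 to 30 in otu5 and from -28.2 to -16.8 in WT. Correlations between replicates lay between 0.974 and 0.983. The count of calls was 1060 without WT replicate 1, 813 without WT replicate 3, 781 without otu5 replicate 2 and 702 without otu5 replicate 3. The same 540 genes, 254 higher and 286 lower, were called in the full fit and in each of the 6 fits that left out 1 control-medium library. A call in this group is said below to hold in every fit. All 2117 called genes kept their direction in those fits.

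**Figure D1:**
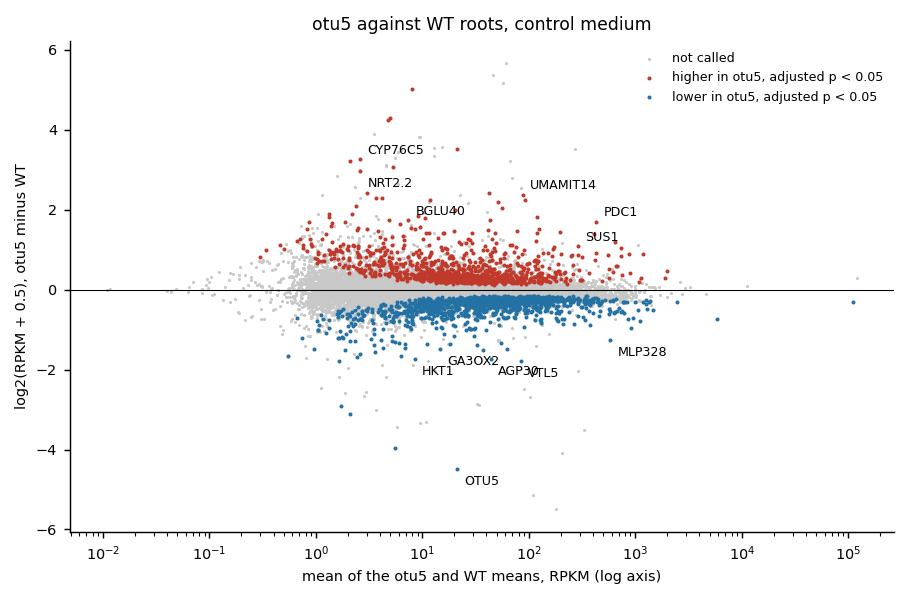
Each point is 1 of 20411 genes; the x axis gives the mean of the otu5 and WT means in RPKM on a log axis and the y axis the log2 difference, otu5 minus WT. The 990 genes called higher (red) and 1127 called lower (blue) mostly lie within 1 log2 unit of 0, and OTU5 stands lowest among them at -4.49.

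Among the named genes with the largest rises were a nitrate transporter, a cytochrome P450, an amino acid transporter and a glyoxylate cycle enzyme. NRT2.2, a high-affinity nitrate transporter, had 6.59, 3.40 and 5.10 RPKM in otu5, against 0.104, 0.380 and 0.106 RPKM in WT (log2 difference 2.97, SE 0.25, adjusted p = 0.00063). CYP76C5, a cytochrome P450, had 3.89, 6.08 and 5.47 RPKM in otu5, against 0.131, 0.106 and 0 RPKM in WT (log2 difference 3.27, SE 0.32, adjusted p = 0.00099). The WT values of both genes were under 0.5 RPKM, and the otu5 values did not overlap with them. UMAMIT14, which exports amino acids, had 129, 163 and 147 RPKM in otu5, against 17.2, 47.7 and 25.3 RPKM in WT (log2 difference 2.38, SE 0.36, adjusted p = 0.0048). ICL, isocitrate lyase of the glyoxylate cycle, had 147, 154 and 152 RPKM in otu5, against 24.7, 42.2 and 29.5 RPKM in WT (log2 difference 2.25, SE 0.39, adjusted p = 0.0091). The lowest otu5 value of ICL was more than 3 times the highest WT value, and all 4 calls held in every fit. TH8, a thioredoxin of the h type, averaged 71.5 ± 14.6 RPKM in otu5 and 13.4 ± 5.72 RPKM in WT (SD, n = 3 each), without overlap (log2 difference 2.43, SE 0.51, adjusted p = 0.02), and its call was lost in 4 of the 6 fits.

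The other genes among the 12 largest rises with non-overlapping libraries carry no name in the gene table, apart from MIR319b. AT1G77150 had 31.5, 50.1 and 35.7 RPKM in otu5, against 1.92, 4.68 and 2.62 RPKM in WT (log2 difference 3.52, SE 0.35, adjusted p = 0.0014), AT5G24640 had 5.95, 5.59 and 4.76 RPKM in otu5, against 0.713, 0.521 and 0.583 RPKM in WT (log2 difference 2.42, SE 0.29, adjusted p = 0.0019), and both calls held in every fit. AT2G30766 and AT1G52696 rose by 3.08 and 2.31 on the log2 scale, with adjusted p = 0.0061 and 0.0056 and calls that held in every fit. For 4 loci the WT control libraries were all listed at 0, so no fold is given. AT2G22426 had 4.38, 4.43 and 3.77 RPKM in the otu5 libraries (adjusted p = 0.0094), and its call held in every fit. AT5G27247, AT2G34224 and the microRNA locus MIR319b had otu5 means of 15.97, 10.01 and 9.43 RPKM, and their calls (adjusted p = 0.016, 0.018 and 0.032) were lost in 4, 3 and 6 of the 6 fits.

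Genes of iron storage, sodium transport, the cell wall and organ growth were among the largest falls after OTU5. VTL5, a vacuolar iron transporter-like protein, had 41.8, 28.9 and 42.4 RPKM in otu5, against 144, 118 and 126 RPKM in WT (log2 difference -1.78, SE 0.18, adjusted p = 0.0014). AGP30, an arabinogalactan protein of the root cell wall, had 21.98, 18.1 and 17.1 RPKM in otu5, against 104, 40.6 and 62.9 RPKM in WT (log2 difference -1.74, SE 0.32, adjusted p = 0.012). HKT1, which retrieves sodium from the xylem sap, had 3.35, 2.76 and 4.47 RPKM in otu5, against 10.8, 9.28 and 20.1 RPKM in WT (log2 difference -1.73, SE 0.31, adjusted p = 0.0092). In each of the 3 genes the groups did not overlap, although the WT libraries of AGP30 and HKT1 spread over a range of more than 2-fold. CYP78A5, a P450 that promotes organ growth, had 1.08, 0.654 and 0.835 RPKM in otu5, against 5.30, 2.94 and 3.65 RPKM in WT (log2 difference -1.70, SE 0.27, adjusted p = 0.005), and its relative CYP78A6 had 0.840, 0.611 and 0.405 RPKM in otu5, against 2.37, 1.37 and 1.84 RPKM in WT (log2 difference -1.07, SE 0.20, adjusted p = 0.0098). The calls of all 5 genes held in every fit.

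The other loci among the 12 largest falls have no name in the table. AT5G23903 fell by 1.79 (adjusted p = 0.012) and its call held in every fit. AT2G01422 had 0.182, 0.0673 and 0 RPKM in otu5, against 2.68, 18.8 and 11.2 RPKM in WT (log2 difference -3.95, SE 0.83, adjusted p = 0.018), with WT values spread widely, and its call was lost in 4 of the 6 fits. AT3G60647, AT2G22820 and AT1G61665 were listed at 0 in all 3 otu5 control libraries against WT means of 4.15, 3.46 and 1.09 RPKM. Their adjusted p was 0.013, 0.029 and 0.011, and the call of AT1G61665 alone among these 3 held in every fit. The falls of AT4G04990 and AT1G63055, by 1.67 and 1.61 (adjusted p = 0.044 and 0.033), were lost in 5 and 6 of the 6 fits.

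**Figure D2:**
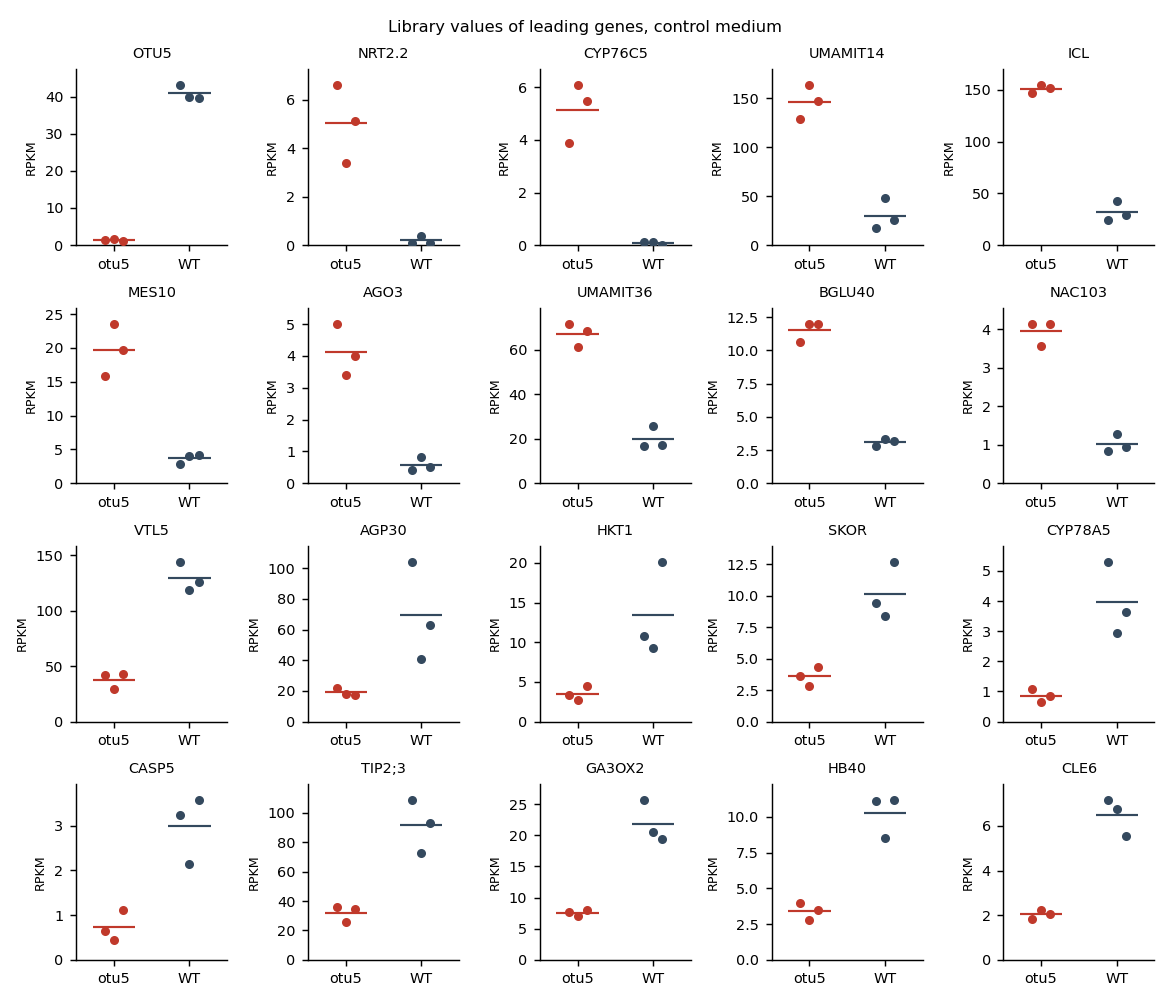
Each panel shows 1 gene, with the 3 otu5 control libraries on the left and the 3 WT control libraries on the right; points are libraries, lines are group means, and the y axis is RPKM from 0. In none of the 20 genes do the groups overlap, and the spread within WT is widest in RPKM for AGP30, from 40.6 to 104.

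Genes known from the plant response to low oxygen were higher in otu5. When oxygen runs short, plant cells shift from respiration to fermentation, and ERF transcription factors that are otherwise destroyed by the oxygen-dependent N-degron pathway switch on a core set of genes. A list of 15 such genes was drawn up after their values had been seen, so its count is a description. Of the 15, 13 rose (86.7%, against 4.85% of all genes tested), none fell, and the median difference was 0.91, against 0.00 over all genes tested. The count of rises was 6 without otu5 replicate 2, 7 without WT replicate 1 or otu5 replicate 3, 8 without WT replicate 3 or otu5 replicate 1, and 11 without WT replicate 2.

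Fermentation and sucrose breakdown led this list. PDC1, pyruvate decarboxylase of ethanol fermentation, had 591, 771 and 602 RPKM in otu5, against 169, 237 and 196 RPKM in WT (log2 difference 1.71, SE 0.27, adjusted p = 0.0055). Its relative PDC2 had 110, 127 and 116 RPKM in otu5, against 68.3, 83.7 and 75.7 RPKM in WT (log2 difference 0.63, SE 0.12, adjusted p = 0.012). ADH1, the alcohol dehydrogenase that follows, had 1402, 1690 and 1511 RPKM in otu5, against 714, 991 and 770 RPKM in WT (log2 difference 0.91, SE 0.19, adjusted p = 0.016). All 3 genes were separated between the groups, and ADH1, the most abundant of the list, lost its call in 4 of the 6 fits while PDC1 and PDC2 kept theirs. SUS4 and SUS1 are sucrose synthases, which cleave sucrose. SUS4 had 533, 678 and 565 RPKM in otu5, against 188, 273 and 215 RPKM in WT (log2 difference 1.40, SE 0.17, adjusted p = 0.0019), and SUS1 had 348, 448 and 377 RPKM in otu5, against 169, 201 and 180 RPKM in WT (log2 difference 1.09, SE 0.16, adjusted p = 0.004). Both calls held in every fit. ALAAT1, an alanine aminotransferase induced by low oxygen, had 206, 222 and 206 RPKM in otu5, against 113, 124 and 113 RPKM in WT (log2 difference 0.86, SE 0.10, adjusted p = 0.0019), a narrow spread in both groups and a call that held in every fit.

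Regulators on the list moved the same way. HRE2, an ERF factor of the hypoxia response, had 61.4, 66.8 and 64.3 RPKM in otu5, against 20.4, 34.5 and 25.7 RPKM in WT (log2 difference 1.27, SE 0.22, adjusted p = 0.0086), and its call held in every fit. PCO2, a plant cysteine oxidase that marks ERF proteins for destruction when oxygen is present, had 141, 160 and 140 RPKM in otu5, against 76.99, 97.1 and 87.2 RPKM in WT (log2 difference 0.75, SE 0.15, adjusted p = 0.014), and without otu5 replicate 2 its adjusted p was 0.056. HRA1, which restrains the ERF factor RAP2.12, and LBD41, a LOB domain factor, differed by 0.91 each (adjusted p = 0.043 and 0.045). Haemoglobin HB1, which scavenges nitric oxide, averaged 941 ± 47.4 RPKM in otu5 and 531 ± 137 RPKM in WT (SD, n = 3 each, log2 difference 0.86, adjusted p = 0.038). RBOHD, an NADPH oxidase, and SRO5 rose by 1.00 and 0.93 (adjusted p = 0.021 and 0.035). These 5 calls were each lost in at least 5 of the 6 fits. HRE1 and PCO1 did not pass, with log2 differences of 0.40 and 0.32 (adjusted p = 0.22 and 0.058). Of the 15 genes, 6 were also called higher in otu5 on low Pi (background 4%), and the interaction of genotype and medium was called by limma for none of the 15, with 3 at an unadjusted p under 0.05.

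**Figure D3:**
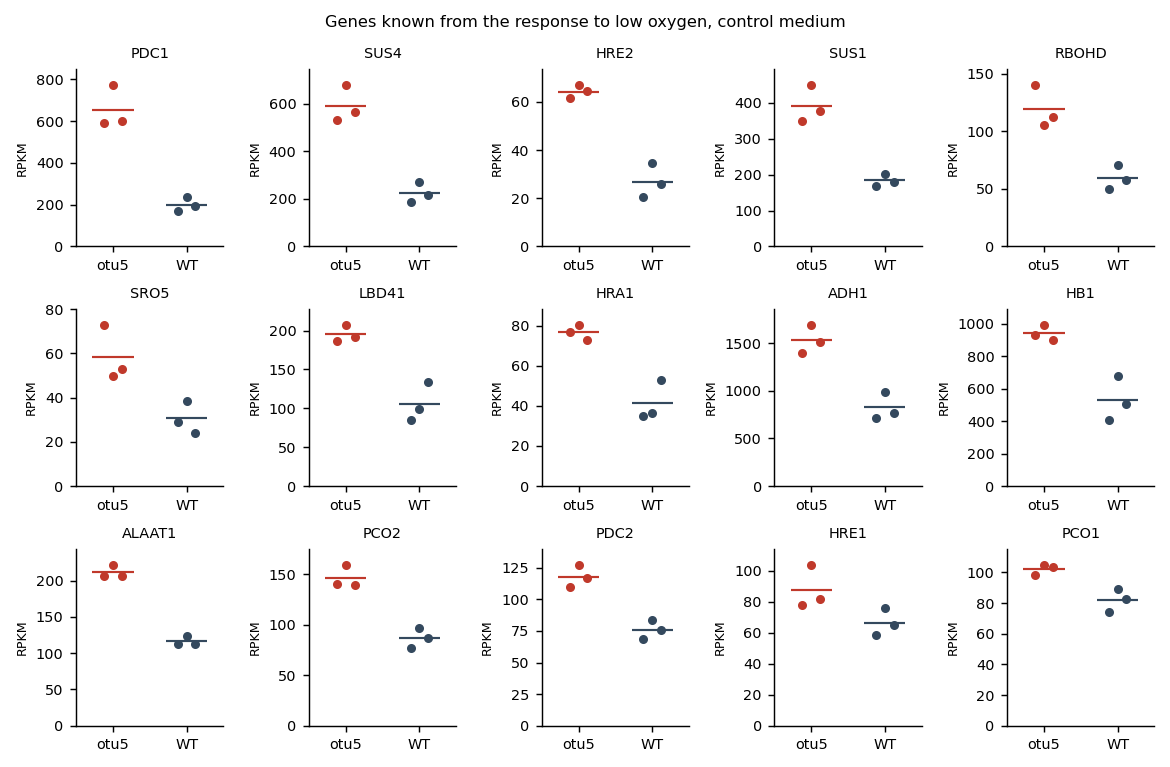
Each panel shows 1 of 15 genes known from the low-oxygen response, ordered by log2 difference; points are control-medium libraries, otu5 on the left and WT on the right, lines are means, and the y axis is RPKM from 0. The otu5 libraries lie above the WT libraries in every panel, including HRE1 and PCO1, which did not pass the test.

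Genes of mitochondrial stress, the response to a blocked respiratory chain, also included several rises. Of 15 tested members that carry a name in the gene table, 5 rose (33.3%, against 4.85% of all genes tested), none fell, and the median was 0.33. The count was 2 without WT replicate 2, WT replicate 3, otu5 replicate 2 or otu5 replicate 3, and 3 without either of the others. NDB4, an external NADH dehydrogenase of the inner membrane, had 1.45, 3.01 and 2.56 RPKM in otu5, against 0.316, 0.564 and 0.398 RPKM in WT (log2 difference 1.58, SE 0.22, adjusted p = 0.0029). ANAC013, the membrane-bound NAC factor that drives this response, had 11.6, 14.8 and 13.6 RPKM in otu5, against 7.99, 9.12 and 7.53 RPKM in WT (log2 difference 0.66, SE 0.12, adjusted p = 0.0078). Both calls held in every fit, and both genes were called higher on low Pi as well, by 1.55 and 0.87. NDB2 rose by 0.47, SOT12, a sulfotransferase, by 0.45 and GSTU25, a glutathione S-transferase, by 1.00 (adjusted p = 0.046, 0.048 and 0.022), with calls lost in at least 4 of the 6 fits. The list also had 4 tested loci without a name in the table, which were left out of that count. Among them AT5G09570 had 3.98, 5.28 and 4.77 RPKM in otu5, against 1.46, 1.38 and 1.102 RPKM in WT (log2 difference 1.51, SE 0.16, adjusted p = 0.0015). AT2G21640 had 21.1, 27.2 and 22.2 RPKM in otu5, against 7.98, 8.69 and 8.40 RPKM in WT (log2 difference 1.43, SE 0.21, adjusted p = 0.0034). Both loci were separated between the groups, held their calls in every fit and were called higher on low Pi too. With the 4 loci, 7 of 19 rose, and 4 to 5 in the fits without 1 library. AOX1A, the alternative oxidase that marks this response, averaged 29.4 ± 2.87 RPKM in otu5 and 24.7 ± 0.829 RPKM in WT (SD, n = 3 each) and did not pass (adjusted p = 0.36).

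Nitrogen genes rose in part. Of 17 nitrate uptake and assimilation genes tested, 4 rose and 1 fell, with a median of 0.14. Among all genes tested, 4.85% rose and 5.52% fell. The rises in the list numbered 3 without WT replicate 3 and 6 without WT replicate 2. NRT2.1, the main high-affinity nitrate transporter, had 1015, 774 and 879 RPKM in otu5, against 300, 564 and 343 RPKM in WT (log2 difference 1.19, SE 0.23, adjusted p = 0.014). Without WT replicate 3 its adjusted p was 0.054. NRT2.1 and NRT2.2 are adjacent, near-identical genes, so the split of reads between them is uncertain. NIA2, the main nitrate reductase, had 505, 549 and 514 RPKM in otu5, against 293, 337 and 301 RPKM in WT (log2 difference 0.75, SE 0.11, adjusted p = 0.0028), and ASN1, asparagine synthetase, had 186, 150 and 156 RPKM in otu5, against 57.8, 87.3 and 67.9 RPKM in WT (log2 difference 1.22, SE 0.17, adjusted p = 0.0029). In both genes the groups were well apart and the call held in every fit. The second nitrate reductase, NIA1, averaged 512 ± 15.1 RPKM in otu5 and 537 ± 19.3 RPKM in WT (SD, n = 3 each) and was not called. LBD37, a repressor of nitrate-responsive genes, fell by 0.49 (adjusted p = 0.029), a call lost in 4 of the 6 fits.

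UMAMIT genes encode transporters, several of which export amino acids. Of 34 tested, 4 rose (11.8%, against 4.85% of all genes tested) and 5 fell (14.7%, against 5.52%). This group was looked at after its values were seen. UMAMIT36 had 71.7, 60.98 and 68.5 RPKM in otu5, against 16.7, 25.9 and 17.3 RPKM in WT (log2 difference 1.75, SE 0.18, adjusted p = 0.0013), a call that held in every fit like that of UMAMIT14. The neighbouring genes UMAMIT17 and UMAMIT20 fell by 1.35 and 1.33 (adjusted p = 0.018 and 0.022), with calls lost in 3 and 4 of the 6 fits.

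Aquaporins, the channels that carry water and small solutes across the plasma membrane and vacuole membrane, fell more often than they rose. Of 23 tested, 10 fell (43.5%, against 5.52% of all genes tested) and 3 rose (13%), with a median of -0.15. The falls numbered 6 without WT replicate 3. The abundant plasma membrane genes fell by modest amounts. PIP1A had 384, 307 and 365 RPKM in otu5, against 574, 539 and 561 RPKM in WT (log2 difference -0.67, SE 0.09, adjusted p = 0.002). PIP1B had 626, 542 and 613 RPKM in otu5, against 932, 808 and 887 RPKM in WT (log2 difference -0.56, SE 0.09, adjusted p = 0.0042), PIP2A fell by 0.54, PIP2B by 0.52 and PIP3 by 0.45 (adjusted p = 0.0049, 0.01 and 0.0032). The vacuolar TIP2;3 had the largest fall of the family, with 36.1, 25.8 and 34.5 RPKM in otu5, against 109, 72.9 and 93.4 RPKM in WT (log2 difference -1.49, SE 0.22, adjusted p = 0.0039). The calls of these 6 genes held in every fit, while those of TIP2, TIP2;2, PIP1;5 and PIP2;4 were lost in at least 1. The 3 rises were of less abundant genes. NIP2;1, a channel for lactic acid that low oxygen is known to induce, had 53.7, 67.6 and 60.6 RPKM in otu5, against 17.35, 26.5 and 20.4 RPKM in WT (log2 difference 1.50, SE 0.27, adjusted p = 0.01). PIP2E had 11.4, 8.56 and 9.34 RPKM in otu5, against 3.96, 3.26 and 4.16 RPKM in WT (log2 difference 1.25, SE 0.16, adjusted p = 0.0021). Both calls held in every fit, and the rise of PIP2;5 by 0.52 (adjusted p = 0.016) was lost in 2 of the 6. PIP genes are similar in sequence, and the sources used here do not say how reads were shared among them.

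Glutathione S-transferases, which attach glutathione to reactive or foreign compounds, had more falls than rises. Of 45 tested, 10 fell (22.2%, against 5.52% of all genes tested), 1 rose (2.22%) and the rest were not called, with a median of -0.20. The falls numbered 6 without WT replicate 3, otu5 replicate 2 or otu5 replicate 3. GSTU28 had 18.4, 16.3 and 15.9 RPKM in otu5, against 39.4, 31.7 and 32.9 RPKM in WT (log2 difference -1.02, SE 0.19, adjusted p = 0.0098). GSTF9, the most abundant of those that fell, had 1199, 1189 and 1195 RPKM in otu5, against 1591, 1846 and 1689 RPKM in WT (log2 difference -0.51, SE 0.07, adjusted p = 0.0031), and the 3 otu5 values lay within 10 RPKM of each other. GSTU19 fell by 0.60, GSTU13 by 0.47, GSTF4 by 0.43 and GSTU27 by 0.34 (adjusted p = 0.003, 0.0019, 0.0063 and 0.0098), and these 6 calls held in every fit. The single rise, of GSTU25, is the one given above with mitochondrial stress.

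Among the genes of root transport and barriers, the calls were few. SKOR, which releases potassium into the xylem, had 3.62, 2.84 and 4.36 RPKM in otu5, against 9.37, 8.39 and 12.7 RPKM in WT (log2 difference -1.37, SE 0.19, adjusted p = 0.0025). In a list of 14 tested potassium and sodium transport genes drawn up after their values were seen, SKOR and HKT1 fell, and KUP3 and KAT3 rose by 0.31 and 0.26 (adjusted p = 0.0078 and 0.034). Each direction held 14.3% of the list, against 5.52% lower and 4.85% higher over all genes tested. HMA2, which pumps zinc out of cells towards the xylem, had 31.4, 26.4 and 29.5 RPKM in otu5, against 9.87, 9.81 and 10.9 RPKM in WT (log2 difference 1.47, SE 0.20, adjusted p = 0.0028). The calls of SKOR, KUP3 and HMA2 held in every fit, and that of KAT3 was lost in 4 of the 6. CASP5, which helps to build the Casparian strip of the endodermis, had 0.652, 0.440 and 1.12 RPKM in otu5, against 3.25, 2.13 and 3.58 RPKM in WT (log2 difference -1.51, SE 0.28, adjusted p = 0.0098), and it was the 1 gene called of 9 endodermis markers. That share was 11.1%, against 5.52% of all genes tested called lower. CASP1 differed by -0.29 (adjusted p = 0.081). None of 13 suberin genes was called by limma, and 0 had an unadjusted p under 0.05.

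Xylem genes and the mixed list of meristem and cell cycle genes, which includes an inhibitor of division, leaned down by small amounts. Of 10 xylem genes, 4 fell (40%, against 5.52% of all genes tested). These were the proteases XCP1 and XCP2, by 0.33 and 0.34, and the laccases LAC4 and LAC17, by 0.24 each. The count was 0 without WT replicate 2, WT replicate 3, otu5 replicate 2 or otu5 replicate 3. Of 22 meristem and cell cycle genes, 8 fell (36.4%, against 5.52% of all genes tested) and 1 rose (4.55%, against 4.85%). The falls numbered 2 without WT replicate 3 or otu5 replicate 3. KN, the syntaxin of the dividing cell plate, had 58.7, 56.97 and 53.7 RPKM in otu5, against 75.4, 73.6 and 77.8 RPKM in WT (log2 difference -0.42, SE 0.07, adjusted p = 0.0066), and KRP2, an inhibitor of cyclin-dependent kinases, had 25.2, 22.5 and 23.4 RPKM in otu5, against 30.8, 30.6 and 32.2 RPKM in WT (log2 difference -0.39, SE 0.07, adjusted p = 0.011). Those calls held in every fit, and PCNA1, PCNA2, CDKB1;1, CDKB2;1, CYCB1;2 and TSO2 fell by 0.30 to 0.41 with calls lost in at least 2 of the 6. In bulk roots, fewer cells of a type and less RNA per cell cannot be told apart.

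Photosynthesis genes, used here as markers of green tissue, included several rises in otu5. Of 33 tested, 10 rose (30.3%, against 4.85% of all genes tested), none fell, and 30 had a positive difference, with a median of 0.27. Their summed level ran from 3445 to 3683 RPKM in the otu5 libraries and from 2630 to 3273 RPKM in the WT libraries, without overlap. LHCB2.2, a light-harvesting protein, had 33.6, 31.6 and 35.7 RPKM in otu5, against 14.4, 18.3 and 19.8 RPKM in WT (log2 difference 0.93, SE 0.16, adjusted p = 0.0085), RCA, Rubisco activase, rose by 0.52 and GAPB, of the Calvin cycle, by 0.51 (adjusted p = 0.0062 and 0.0041). Calls of these 3 held in every fit, and the list count was 3 without WT replicate 1, WT replicate 3, otu5 replicate 2 or otu5 replicate 3. None of the 33 genes was listed at 0 in all control libraries, and root markers were present too. Summed endodermis markers ran from 327 to 410 RPKM in otu5 and from 375 to 424 RPKM in WT, and summed root hair genes from 796 to 865 RPKM in otu5 and from 803 to 888 RPKM in WT, with overlap in both. Summed xylem genes ran from 221 to 264 RPKM in otu5 and from 280 to 329 RPKM in WT, without overlap. The part of green tissue in the other differences was not tested.

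**Figure D4:**
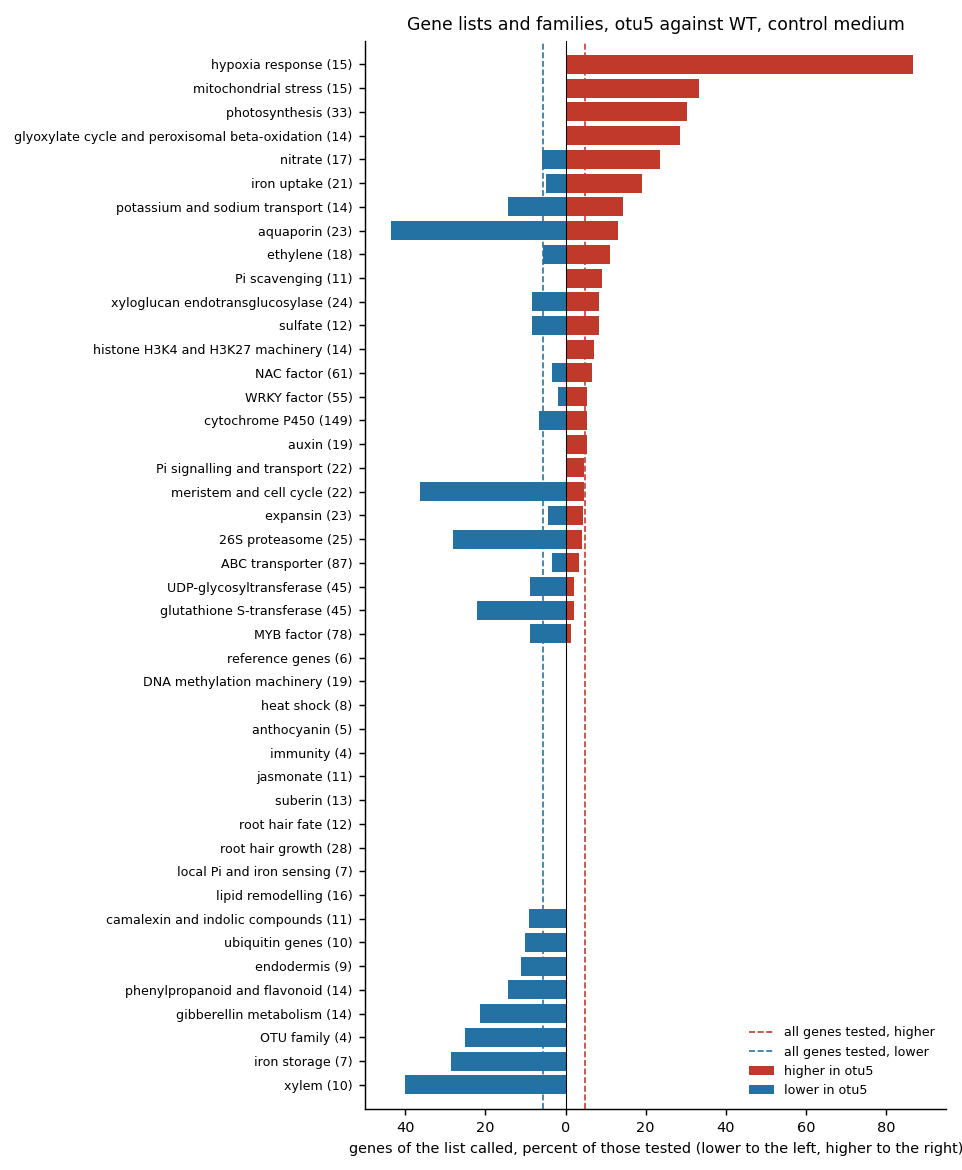
Bars give the percent of the tested genes of each list or family called higher in otu5 (red, to the right) or lower (blue, to the left) on control medium, with the number tested in brackets; dashed lines mark 4.85% and 5.52%, the shares over all genes. The list of genes known from low oxygen reaches 86.7% on the right, but it was drawn up after its values were seen, so its place is a description, and aquaporins reach furthest to the left at 43.5%.

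Few genes of the Pi starvation response were called on control medium. In the list for Pi signalling and transport 16 of 22 differences were positive, with a median of 0.065, and 1 gene rose (4.55%, against 4.85% of all genes tested). It was PHO1, which loads Pi into the xylem, with 209, 223 and 223 RPKM in otu5, against 172, 182 and 186 RPKM in WT (log2 difference 0.28, SE 0.06, adjusted p = 0.016) and a call lost in 3 of the 6 fits. IPS1, a non-coding target mimic and a sensitive mark of Pi shortage, averaged 1.71 ± 0.273 RPKM in otu5 and 0.536 ± 0.261 RPKM in WT (SD, n = 3 each), and the transporter PHT1;1 averaged 141 ± 10.9 RPKM in otu5 and 117 ± 9.26 RPKM in WT. Neither passed (adjusted p = 0.096 and 0.2). Of 11 Pi scavenging genes 1 rose (9.09%, against 4.85% of all genes tested). It was RNS1, a secreted ribonuclease, with 1.53, 1.03 and 1.08 RPKM in otu5, against 0.328, 0.171 and 0.382 RPKM in WT (log2 difference 1.11, SE 0.23, adjusted p = 0.016) and a call that held in every fit. None of 16 lipid remodelling genes and none of 7 genes of local Pi and iron sensing was called by limma, with 2 genes of each list at an unadjusted p under 0.05.

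Iron genes changed in both directions. CYP82C4, a P450 of coumarin synthesis in iron-starved roots, had 0.793, 0.705 and 0.900 RPKM in otu5, against 2.23, 2.83 and 2.47 RPKM in WT (log2 difference -1.21, SE 0.15, adjusted p = 0.0019), a call that held in every fit. Every low Pi library listed it at 0, so those libraries added no spread to the shared estimate for this gene. It passed the filter through the WT control libraries alone. Its p-value and its fits are therefore a description. The uptake genes IRT1 and FRO2 averaged 13.99 ± 5.58 and 5.31 ± 1.99 RPKM in otu5 and 27.99 ± 4.93 and 8.64 ± 0.703 RPKM in WT (SD, n = 3 each), and neither passed (adjusted p = 0.072 and 0.055). Of 21 tested iron uptake genes that carry a name in the table, 4 rose (19%, against 4.85% of all genes tested) and 1 fell, the rises being NAS4, OPT3, AHA2 and PDR9 by 0.68, 0.60, 0.29 and 0.29, and none of these was called without WT replicate 3 or otu5 replicate 3. The list also had 3 tested loci without a name in the table, left out of that count. One of them was AT2G30766, given above among the largest rises, with 7.89, 11.1 and 9.996 RPKM in otu5, against 1.09, 1.64 and 0 RPKM in WT (log2 difference 3.08, SE 0.50, adjusted p = 0.0061). Its rise exceeded that of each named iron gene, and with the 3 loci 5 of 24 rose. Of 7 iron storage genes VTL5 and VTL2 fell (28.6%, against 5.52% of all genes tested). The call of VTL2 (log2 difference -0.84, SE 0.24, adjusted p = 0.05) was lost in all 6 fits.

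Root hairs are single-cell outgrowths that widen the surface for Pi uptake. None of 28 root hair growth genes and none of 12 root hair fate genes was called on control medium by limma (medians of -0.01 and -0.02), and 4 and 1 of them had an unadjusted p under 0.05. The growth regulators RSL4 and RHD6 averaged 5.12 ± 0.403 and 15.02 ± 1.21 RPKM in otu5 and 4.64 ± 0.251 and 13.1 ± 0.399 RPKM in WT (SD, n = 3 each). On low Pi 16 of the 28 growth genes were called lower in otu5, against 5.91% of all genes tested. The interaction of genotype and medium was called by limma for none of the 28, with a smallest adjusted p of 0.22, while 18 had an unadjusted p under 0.05.

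Genes of the 26S proteasome included small falls. Of 25 tested, 7 fell by 0.16 to 0.32 (28%, against 5.52% of all genes tested) and 1 rose (4%). The falls numbered 1 without WT replicate 3, otu5 replicate 2 or otu5 replicate 3, and 3 after quantile normalization. The largest of them, in PBG1, PAD1 and PAF1, were in abundant genes, with WT means of 138, 119 and 147 RPKM. Among all genes averaging at least 44.56 RPKM over the 6 control libraries, 12.6% were called lower. Of 10 ubiquitin genes UBQ6 fell by 0.41 (adjusted p = 0.021), a call lost in 3 of the 6 fits. It was the only call of that list (10%, against 5.52% of all genes tested). None of 19 genes of the DNA methylation machinery was called by limma, with 3 at an unadjusted p under 0.05. Of 14 genes that write or remove histone H3K4 and H3K27 methylation, SWN, a H3K27 methyltransferase, rose by 0.24 (adjusted p = 0.015), a call lost in 3 of the 6 fits. No other gene of that list was called (7.14% rose, against 4.85% of all genes tested). AGO3, an Argonaute that binds small RNAs, had 5.02, 3.39 and 3.99 RPKM in otu5, against 0.404, 0.815 and 0.518 RPKM in WT (log2 difference 2.11, SE 0.27, adjusted p = 0.0021), a call that held in every fit. Among 18 ethylene genes 2 rose (11.1%, against 4.85% of all genes tested) and 1 fell (5.56%, against 5.52%). ACO1 (AT2G19590), an ACC oxidase that makes ethylene, had 296, 374 and 290.2 RPKM in otu5, against 159, 197 and 175 RPKM in WT (log2 difference 0.85, SE 0.15, adjusted p = 0.009). Its call held in every fit and it was called higher on low Pi too. ETR2, an ethylene receptor, rose by 0.62 (adjusted p = 0.023) and EBF2, an F-box protein that destroys EIN3, fell by 0.36 (adjusted p = 0.045), calls lost in 4 and 6 of the 6 fits. GA3OX2, which makes active gibberellin, had 7.60, 6.97 and 7.98 RPKM in otu5, against 25.7, 20.5 and 19.4 RPKM in WT (log2 difference -1.47, SE 0.25, adjusted p = 0.0078), and CCD7, of strigolactone synthesis, had 1.18, 1.47 and 0.982 RPKM in otu5, against 0.0928, 0.198 and 0.347 RPKM in WT (log2 difference 1.27, SE 0.21, adjusted p = 0.0065). Both calls held in every fit. None of 11 jasmonate genes was called by limma, with 1 at an unadjusted p under 0.05.

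Several other named genes with large differences held their calls in every fit. BGLU40, a beta-glucosidase, had 10.7, 11.99 and 12.03 RPKM in otu5, against 2.79, 3.36 and 3.22 RPKM in WT (log2 difference 1.74, SE 0.11, adjusted p = 9.9e-05), the smallest adjusted p after OTU5 among the genes named here. MES10, of the methyl esterase family, averaged 19.7 ± 3.87 RPKM in otu5 and 3.72 ± 0.721 RPKM in WT (SD, n = 3 each) (log2 difference 2.26, SE 0.30, adjusted p = 0.0025). NAC103, a NAC factor of the unfolded protein response, had 4.13, 3.57 and 4.14 RPKM in otu5, against 0.834, 1.28 and 0.954 RPKM in WT (log2 difference 1.56, SE 0.14, adjusted p = 0.00063), and NAC044, a NAC factor of the DNA damage response, had 5.35, 6.004 and 5.89 RPKM in otu5, against 2.35, 2.60 and 2.67 RPKM in WT (log2 difference 1.04, SE 0.11, adjusted p = 0.0013). In all 4 genes the lowest otu5 value was above the highest WT value by at least 2-fold. The xyloglucan endotransglucosylases XTH24 and XTH20, which remodel the cell wall, rose by 1.42 and 0.75, and XTH21 fell by 0.96 (adjusted p = 0.011, 0.0023 and 0.0019).

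Falls that held in every fit were also seen for a pair of CLE genes, a homeobox factor and a latex protein gene. CLE6 and its neighbour CLE5 encode small secreted peptides, and of 23 CLE genes tested these 2 fell (8.7%, against 5.52% of all genes tested) and CLE41 rose (4.35%, against 4.85%). CLE6 had 1.84, 2.23 and 2.06 RPKM in otu5, against 7.17, 6.78 and 5.55 RPKM in WT (log2 difference -1.46, SE 0.18, adjusted p = 0.0019), and CLE5 had 1.39, 1.88 and 1.35 RPKM in otu5, against 7.95, 4.56 and 4.62 RPKM in WT (log2 difference -1.57, SE 0.28, adjusted p = 0.009). The homeobox factor HB40 had 3.95, 2.80 and 3.48 RPKM in otu5, against 11.1, 8.56 and 11.2 RPKM in WT (log2 difference -1.47, SE 0.26, adjusted p = 0.0087). MLP328, of the major latex protein family, fell at a far higher level, with 420, 265 and 360 RPKM in otu5, against 835, 786 and 838 RPKM in WT (log2 difference -1.26, SE 0.21, adjusted p = 0.0067). The groups did not overlap in any of the 4 genes. CLE5 and CLE6 are near each other and alike, so the split of reads between them is uncertain.

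Most differences on control medium had the same direction on low Pi. The low Pi values come from other libraries, but all 12 libraries set the filter and the spread in the model behind the control-medium calls. Of the 990 rises, 966 (97.6%) were also positive on low Pi and 433 were called higher there. Of the 1127 falls, 1096 (97.2%) were also negative and 582 were called lower. On low Pi 2023 genes were called (9.91% of genes tested), 4% of genes tested higher and 5.91% lower. The share of all genes tested with the same sign on both media is not given here. The 1015 genes called in the same direction on both media made up 47.9% of the control calls and 50.2% of the low Pi calls. The median size of the control-called differences was 0.37 on control medium and 0.28 on low Pi, the genes having been chosen by their control-medium values. VTL5 and HKT1 fell by 1.99 and 2.16 on low Pi and UMAMIT36 rose by 2.1, each called there too. Among the 12 largest rises named above, all but AT5G24640 were smaller on low Pi. AT1G77150, CYP76C5, AT2G22426, NRT2.2 and AT5G24640 were called higher there. UMAMIT14 (0.94), AT1G52696 (0.581), TH8, AT2G30766, AT5G27247, AT2G34224 and MIR319b (-1.184) were not. Among the 12 largest falls, AT3G60647, AT2G22820, AT4G04990, AT1G61665 and AT1G63055 were not called on low Pi, and the others were called lower.

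**Figure D5:**
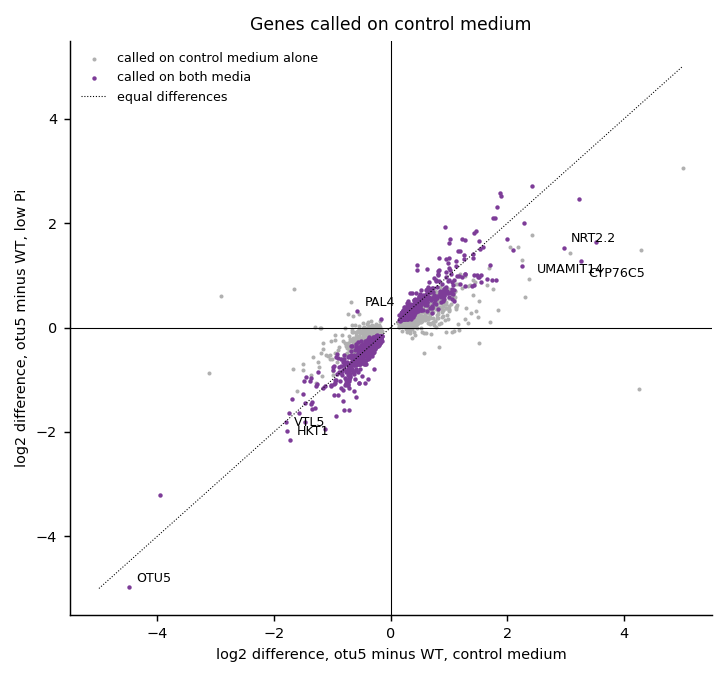
Each point is 1 of the 2117 genes called on control medium, with the log2 difference, otu5 minus WT, on control medium on the x axis and on low Pi on the y axis; the dotted line marks equal differences. Most points lie in the lower left and upper right of the plot, and PAL4 lies in the upper left at -0.57 on control medium and 0.31 on low Pi.

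One gene differed between the media by the test of the interaction. PAL4, a phenylalanine ammonia-lyase at the entry to phenylpropanoid synthesis, had 16.7, 13.9 and 14.8 RPKM in otu5, against 22.8, 22.2 and 22.8 RPKM in WT on control medium (log2 difference -0.57, SE 0.07, adjusted p = 0.0017). On low Pi it averaged 20.9 ± 1.04 RPKM in otu5 and 16.7 ± 0.354 RPKM in WT (SD, n = 3 each, log2 difference 0.31, adjusted p = 0.014). It was lower in every otu5 library on control medium and higher in every otu5 library on low Pi. The interaction was 0.88 with SE 0.09 (adjusted p = 0.025), the only one called of 20411 (0.0049%). The call was lost with the replicate block (adjusted p = 0.078) and in 7 of the 12 fits that left out 1 library of either medium, where the adjusted p ran from 0.0049 to 0.16 and the interaction stayed positive. It was lost without WT control replicate 1 or 3, otu5 control replicate 2 or 3, WT low Pi replicate 1 or 2, or otu5 low Pi replicate 1. At an unadjusted p under 0.05 there were 1117.

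The genes that fell were shorter and more abundant than those that rose. The median locus length was 2864 bp for the rises and 1875 bp for the falls, against 2342 bp over all genes tested. Median levels were 21.99 RPKM for the rises and 37.9 RPKM for the falls. In the highest of 5 bins by mean level on control medium, 6.59% were called higher and 12.6% lower. In the lowest bin by level the shares were 3.53% and 2.23%. When genes were cut by locus length into 5 bins of nearly equal size, 4.04% of the shortest bin were called higher and 8.45% lower, and 8.23% of the longest bin were called higher and 1.9% lower. The same order was seen on low Pi, with 2.76% higher and 8.65% lower in the shortest bin and 7.34% higher and 2.88% lower in the longest. The part of locus length or level in the calls was not tested, and the shares over all genes given beside the lists do not allow for either. The library values of the locus AT2G01021, the most abundant in the table, ran from 74372 to 154609 RPKM in otu5 and from 30508 to 317971 RPKM in WT. Median-ratio scaling left the count of calls at 2112. The size factors behind it lay between 0.9991 and 1.001 in all 12 libraries, so it could change little. The part of AT2G01021 in the calls was not tested.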

How the data were processed

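The RNA values are RPKM as deposited by the authors. Per the submitters' processing notes the tools included TopHat2 2.0.4 and Cuffdiff and the build was TAIR10. The role of each tool and the scaling between libraries are not given in the sources used. The table gives no read counts, so depth is unknown. The 8 methylation and 16 chromatin immunoprecipitation samples were not analysed here. Gene names are RefSeq's (TAIR10.1), which covered 32810 of 33557 identifiers (97.8%).

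The log2(RPKM + 0.5) values of all 12 libraries entered 1 limma model (version 3.58.1, R 4.3.3) with a mean for each of the 4 groups, which left 8 residual degrees of freedom, and trended, robust empirical Bayes moderation. Benjamini-Hochberg adjustment ran over 20411 genes, at a threshold of 0.05. The procedure was tested on simulated data.

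The comparison, the members and the gene lists were chosen with earlier results of these data known, and 4 lists and the UMAMIT and CLE groups were added after values were seen. List counts leave out 30 entries that RefSeq's table does not name. Of these, 22 were tested, 3 rose and 0 fell, and the 3 are given in the text by locus. Families were taken by symbol, leaving out unrelated genes with similar symbols. Named genes are OTU5, its 5 tested neighbours on each side, the 12 largest rises and falls whose libraries do not overlap, up to 3 called members of each list or family, and the 3 smallest interaction p-values. Other genes named in the text were chosen after their values were seen. Alternatives were the pseudocount, the filter, the scaling, the moderation, library weights, a replicate block, fewer libraries and the exclusion of loci under 300 bp. An exact 0 can be a failed estimate, which is why the text writes that a gene is listed at 0.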

Additional observations from a re-analysis of the deposited data

Results flagged for a closer look

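PAL4 stood out because its difference between otu5 and WT itself differed between the media. It was lower in otu5 on control medium, at 15.1 ± 1.41 RPKM in otu5 and 22.6 ± 0.337 RPKM in WT, and higher in otu5 on low Pi, at 20.9 ± 1.04 RPKM in otu5 and 16.7 ± 0.354 RPKM in WT (SD, n = 3 each). The interaction was 0.88 on the log2 scale, with adjusted p = 0.025 by limma. The call was lost with the replicate block (adjusted p = 0.078) and in 7 of the 12 fits that left out 1 library, where the adjusted p ran from 0.0049 to 0.16.

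HCT, the hydroxycinnamoyl transferase of lignin synthesis, was marked because every otu5 library lay below every WT library on control medium and above on low Pi. It averaged 114 ± 4.24 RPKM in otu5 and 128 ± 2.82 RPKM in WT on control medium, and 152 ± 4.42 RPKM in otu5 and 135 ± 2.11 RPKM in WT on low Pi (SD, n = 3 each). Its interaction of 0.33 did not pass (adjusted p = 0.25 by limma), so the difference between the media was not called for this gene. PAL4 and HCT were the only 2 genes called in opposite directions on the 2 media.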

How the results depend on the processing

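With estimated library weights the calls on control medium numbered 6795 (3280 higher and 3515 lower), those on low Pi 4382 and the interactions 147. The interactions numbered 2 without a filter, 2 with plain empirical Bayes moderation and 0 with the replicate block. Leaving out 1 library at a time gave 702 to 1613 calls on control medium (325 to 751 higher and 377 to 862 lower), 830 to 2251 on low Pi and 0 to 17 interactions, and OTU5 kept its call at log2 differences of -4.62 to -4.36. The cause of these shifts was not tested, beyond the fewer libraries. On control medium, same-numbered otu5 and WT libraries deviated from their group means with correlations of -0.096, -0.152 and 0.012. Of these 6 libraries 0 correlated best with their own number. With 3 libraries a group this cannot settle whether the numbers pair the samples, and the low Pi libraries were not checked. With the replicate block 1887 genes were called on control medium (860 higher and 1027 lower) and 1798 on low Pi. Of 107 named genes 95 were called, 45 of these in every fit that left out a control-medium library. None of the 95 changed direction in those fits. Under the other settings run for each, the counts for both media and the interaction stayed within 1.5 times. Leaving out loci under 300 bp was run for the counts on control medium alone. List counts were less steady. Photosynthesis rises numbered 10 as reported, 5 without a filter and 5 with plain moderation. Falls in the 26S proteasome numbered 7 as reported, 3 after quantile normalization, 3 in the 6 control-medium libraries alone and 4 with the replicate block, and xylem falls, 4 as reported, numbered 2, 1 and 0 under the same 3 settings. Library weights raised falls among glutathione S-transferases to 19, against 10 as reported. Without counts, the precision of low genes is unknown, and 3 libraries a group limit every comparison.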

Other observations

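The gene lists and families not described above gave few calls on control medium. In a list of 14 glyoxylate cycle and peroxisomal beta-oxidation genes, drawn up after values were seen, 4 rose (28.6%, against 4.85% of all genes tested), namely ICL, the malate dehydrogenase PMDH2 (log2 difference 0.97), the carboxykinase PCK1 (0.39) and MFP2 (0.22), and MLS, malate synthase, averaged 3.08 ± 0.407 RPKM in otu5 and 4.14 ± 1.42 RPKM in WT (SD, n = 3 each) without a call. ICL alone kept its call in every fit, and the rises numbered 1 in all fits but the one without WT replicate 2, which gave 3. Of 14 gibberellin genes, also listed after values were seen, GA3OX2, GA3OX1 and GA2OX1 fell (21.4%, against 5.52% of all genes tested). The calls of GA3OX1 and GA2OX1 were each lost in 5 of the 6 fits. In sulfate transport and assimilation, SULTR2;1, which moves sulfate within vascular tissue, rose by 1.17, and SULTR1;1, a root uptake transporter, fell by 0.82 (12 genes tested, adjusted p = 0.016 for both by limma). Each was 8.33% of the list, against 4.85% higher and 5.52% lower over all genes tested. The call of SULTR2;1 was lost without otu5 replicate 2 or 3, and that of SULTR1;1 without WT replicate 1 or otu5 replicate 2 or 3. Of 14 phenylpropanoid and flavonoid genes, TT5, chalcone isomerase, fell by 0.74 beside PAL4 (14.3%, against 5.52% of all genes tested). Of 19 auxin genes GH3.3 alone was called and rose by 0.71 (5.26%, against 4.85% of all genes tested). Of 11 genes of camalexin and indolic compounds CYP83B1 alone was called and fell by 0.24 (9.09%, against 5.52%). The calls of TT5 and GH3.3 were lost in all 6 fits without 1 library and that of CYP83B1 in 5. Limma called 0 of 5 anthocyanin, 0 of 4 immunity, 0 of 8 heat shock and 0 of 6 reference genes, with 0, 0, 2 and 2 at an unadjusted p under 0.05. Of the 3 listed reporters of DNA methylation, 0 passed the filter.

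Over all genes tested 4.85% rose and 5.52% fell. Of 149 cytochrome P450 genes 8 rose (5.37%) and 10 fell (6.71%). Of 78 MYB factors 7 fell (8.97%) and 1 rose (1.28%), with 1 fall without otu5 replicate 2 or otu5 replicate 3, led by MYB19 (log2 difference -1.37, adjusted p = 0.022, lost in 5 of the 6 fits without 1 library). Of 55 WRKY factors 3 rose, with WRKY21 at 0.52 called in every fit, and 1 fell. Of 61 NAC factors 4 rose and 2 fell. Of 24 xyloglucan endotransglucosylases 2 rose and 2 fell, of 23 expansins EXPA12 rose by 1.33 and EXPB1 fell by 0.80, of 45 UDP-glycosyltransferases 1 rose and 4 fell, and of 87 ABC transporters 3 rose and 3 fell. Of 20289 pairs of neighbouring tested genes, both were called in 259, and 162 of these pairs (62.5%) moved in the same direction. Over all genes tested 10.4% were called and 50.9% had a positive difference. Whether the pair counts exceed those of unrelated genes was not tested, and some pairs, such as CLE5 and CLE6, are alike in sequence.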
